A study of Mus musculus with 2 samples.

Results

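C1q-positive macrophages were taken from single-cell RNA sequencing of mouse tumors as the leukocytes with abundant transcripts of all 3 chains of the complement protein C1q. They were chosen by their own measured UMI counts (UMI, unique molecular identifier, a count of captured mRNA molecules). A member had at least 500 detected genes, at most 10% mitochondrial UMIs, a UMI of the leukocyte gene Ptprc, a UMI of each of C1qa, C1qb and C1qc with at least 10 over the 3, and none of the lymphocyte genes Cd3e, Cd3g and Cd79a. Of 18823 deposited cells, 591 were members, 169 of 9301 in the control library and 422 of 9522 in the Dnmt1iECKO library.

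Each library was made from the pooled tumors of 3 female mice of 8 to 10 weeks that carried YUMMER1.7, an immunogenic mouse melanoma line, and that had been given tamoxifen. Dnmt1iECKO mice had the genotype Cdh5CreERT2;Dnmt1fl/fl;ZsGreenlsl/lsl, in which tamoxifen activates a Cre recombinase driven by the endothelial Cdh5 promoter. The gene of the maintenance DNA methyltransferase DNMT1 is thereby deleted in endothelial cells, and macrophages were not the targeted cells. Control mice are labelled C57BL/6, and the methods of the study describe its controls as Cre-bearing ZsGreen reporter mice. The labels describe subcutaneous tumors, whereas the paper describes lung tumors for the sequencing, made by injection of the line into the tail vein. The tissue of origin is thus not settled by these descriptions. Surfactant transcripts of alveolar epithelium were present in the members of both libraries, as given below, and the tissue was not tested from them. With 1 library per genotype there was no replicate, no test could be made, and each interval below is an exact 95% interval that covers counting error only, not the spread between mice.

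C1q is the recognition part of the classical complement pathway, and in most tissues it is made by macrophages rather than by the liver. Macrophages rich in C1q transcripts are a common class of tumor and tissue macrophage, known for uptake of dying cells, antigen presentation on MHC class II and release of chemokines that draw other leukocytes. Such cells arise from blood monocytes or from macrophages resident in the tissue, and they take on different gene programs in response to interferon-γ, interleukin-4 or the uptake of lipid.

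After the quality filters 8021 control and 8102 Dnmt1iECKO cells remained. The cells had been sorted as CD31+CD45-, a gate that would remove leukocytes, yet Ptprc was detected in 18.3% of control and 58.4% of Dnmt1iECKO cells. The libraries shared 29 cell barcodes in all and none among the members. Endothelial cells, defined by a UMI of Cdh5 or Pecam1 and none of the excluded lineage genes, numbered 4922 and 2077. They serve below as the class that should lack macrophage transcripts.

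The members had the transcripts of macrophages. Levels are given as CPM, the UMIs of a gene over all UMIs of the members of a library, scaled to 1000000. General macrophage markers, 10 genes, had summed levels of 14315 (control members) and 14797 CPM (Dnmt1iECKO members), against 173 CPM in control endothelial cells. Csf1r, the receptor for the macrophage growth factor CSF-1, stood at 306 and 326 CPM, and Aif1, which encodes an actin-binding protein of macrophages, at 534 and 696 CPM. The 15 genes with the highest ratio of members over endothelial cells among those in at least 50% of members of each library were C1qa, C1qb, C1qc, Lyz2, Ctss, Cxcl2, Il1b, Fcer1g, Lgals3, Cd14, Tyrobp, Cybb, Bcl2a1b, Cd52 and Ptprc. This list describes the cells as they were chosen and is no finding. Markers of T cells summed to 9.16 and 17.2 CPM, a sum held down by the rule, which required 0 UMIs of 2 of the 9 genes (Cd3e and Cd3g), and those of the melanocyte lineage to 0.474 and 0.293 CPM, with 4 of the 6 melanocyte genes at 0 UMIs in the members of both libraries.

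The C1q levels below are values that the rule used, and they describe the choice of cells. The summed C1q count had a median of 217 UMIs in control and 194.5 UMIs in Dnmt1iECKO members, from median totals of 33834 and 29335.5 UMIs per cell. After each cell was thinned to 2000 UMIs, C1qa was detected in 88.1% and 90.2% of members and in 0.241% and 0.945% of endothelial cells. Among cells that met the rest of the rule, 6 control and 8 Dnmt1iECKO cells lay just outside the limit, with 5 to 9 C1q UMIs, of which 4 and 4 had a Csf1r UMI. Just inside it, with 10 to 19 C1q UMIs, lay 7 and 28 cells, of which 7 and 24 had a Csf1r UMI. The 3 C1q genes lie next to each other on chromosome 4 of GRCm38 on the minus strand, C1qb at 136880129 to 136886187, C1qc at 136889804 to 136893065 and C1qa at 136895917 to 136898803.

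**Figure D1:**
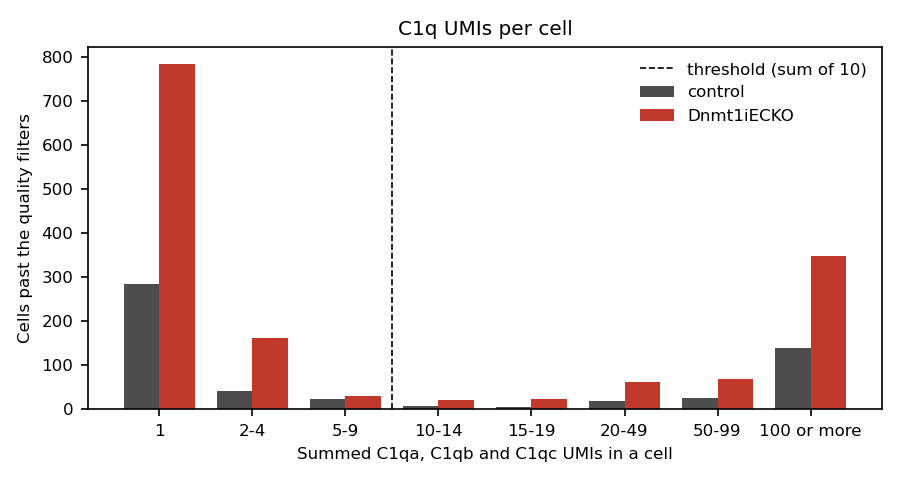
Number of quality-filtered cells (y axis) by the sum of C1qa, C1qb and C1qc UMIs in the cell (x axis, bins of unequal width; cells with 0 are not drawn), for the control (grey) and Dnmt1iECKO (red) libraries, with the threshold as a dashed line. Few cells lay near the threshold: 22 control and 29 Dnmt1iECKO cells had 5 to 9 UMIs, while 139 and 347 had 100 or more.

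The direction of the difference in abundance turned with the denominator. Members were 2.11% (95% binomial interval, Clopper-Pearson, 1.8 to 2.45) of quality-filtered control cells and 5.21% (4.73 to 5.71) of Dnmt1iECKO cells, a ratio of 2.47. Of cells with a Ptprc UMI they were 11.5% (9.94 to 13.3) and 8.92% (8.13 to 9.77), a ratio of 0.774. Among members and other Csf1r-positive leukocytes together they were 36.7% and 33.2%, a ratio of 0.902 with an interval of 0.753 to 1.09. The share of all cells moved with the share of leukocytes that came through the CD45- gate, and the part of the gate in it was not tested.

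The members were not uniform, and clustering of the merged libraries gave 6 clusters with cells of each library in every one. Cluster 1 (53 control and 115 Dnmt1iECKO cells) was led by Gpnmb, Atp6v0d2, Chil3, Syngr1, Fabp5 and Spp1. Gpnmb and Fabp5 are known from macrophages that have taken up lipid, and Atp6v0d2 encodes a subunit of the pump that acidifies lysosomes. Chil3 and Atp6v0d2 are also on the list of alveolar macrophage markers. That list summed to 2110.5 CPM in cluster 1, the highest of the clusters, and to 1717.5 CPM in cluster 5. In the other clusters it was at 65.4 to 322 CPM. Cluster 2 (25 and 86 cells) was led by the chemokine genes Ccl8 and Ccl12 with Cd72 and Clec4a1. Its C1q genes, whose counts the rule used, summed to 12830 CPM. They summed to 11625 CPM in cluster 3 and to 4561 (cluster 1) to 7581 CPM (cluster 4) in the others. Cluster 3 (25 and 56 cells) was led by Sftpc, Cbr2, F13a1, Folr2 and Pf4, and its summed level of 10 markers of perivascular and interstitial macrophages was 2344 CPM, compared with 283.7 to 780 CPM in the other clusters. Sftpc encodes a surfactant protein of alveolar epithelium, and 90.5% of its control UMIs over all members came from 5 cells. Cluster 4 (45 and 129 cells) was led by Il1r2, Ifitm1, Ly6i, Ccr7, Arg1 and Plac8.

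The smallest cluster, number 5 (5 and 15 cells), was led by Prg4, Serpinb2, Alox15, Saa3, Cd5l, F5 and Marco, each in at least 90% of its cells. Prg4 and Alox15 are known from the resident macrophages of body cavities, and Marco and Cd5l encode scavenger proteins. Saa3 stood at 11523 CPM there and at 91.4 CPM in the other members. The MHC class II list was lowest in this cluster, at 6980 CPM against 25862 to 54253 CPM in the others.

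Cluster 6 (16 and 21 cells) was led by Mgp, Limch1, Sparc, Timp3 and Prex2, genes of endothelial and stromal cells. Its endothelial markers summed to 2206 CPM, compared with 47.5 CPM in cluster 1, and its fibroblast markers to 740 CPM. Of the 24 members that Scrublet marked as doublets (2 cells in 1 droplet), 22 were in this cluster. It made up 9.47% of control and 4.98% of Dnmt1iECKO members, and it bears on every comparison below in which endothelial genes appear.

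**Figure D2:**
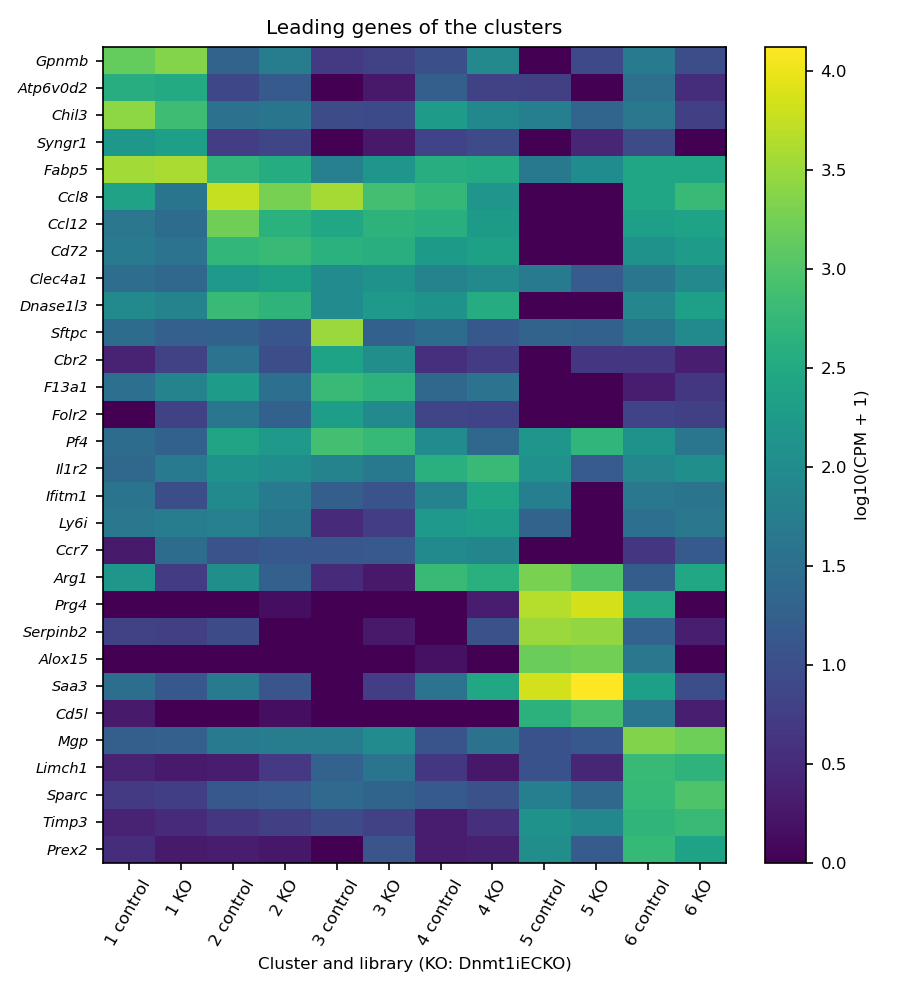
Level of the 5 leading genes of each cluster (rows) in the control and Dnmt1iECKO members of clusters 1 to 6 (columns), as log10 of CPM plus 1 (colour). Most leading genes were high in the same cluster in both libraries. Sftpc was high in cluster 3 of the control library only, and Arg1, a leading gene of cluster 4, was higher still in cluster 5.

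Over all members, 9561 genes had at least 100 UMIs in the libraries together, and their median log2 ratio of Dnmt1iECKO over control CPM was 0.02. Past 2-fold lay 49 genes that were higher in Dnmt1iECKO members (0.512% of genes) and 372 that were lower (3.89%). The lower genes were largely those of endothelial cells: 313 of them, 84.1%, had a higher CPM in the endothelial cells than in the members of each library, which held for 56.3% of all 9561 genes. All 10 endothelial markers were lower in Dnmt1iECKO members, 9 of them past 2-fold, and their sum was 460 CPM in control and 182 CPM in Dnmt1iECKO members. Without cluster 6 (153 and 401 cells left, a choice made after seeing the data), 61 genes were higher and 93 lower. Without members that had a UMI of Cdh5 or Pecam1 (89 and 254 cells left), 100 genes were higher and 99 lower. This choice removed 80 control and 168 Dnmt1iECKO members, 47.3% and 39.8% of them. Of the removed cells 30 and 42 had a Cdh5 UMI, and the others were removed for Pecam1 alone. Of all cells with a Ptprc UMI, 54.7% in control and 48.8% in Dnmt1iECKO had a UMI of Cdh5 or Pecam1. Which of the removed cells held endothelial transcripts from another cell, and which had Pecam1 transcripts of their own, was not tested. Ratios without the latter cells are given below for named genes that they moved across 2-fold or by more than 1.5 times, other than the leading genes of clusters 3 to 6.

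Dnmt1, the gene deleted in endothelial cells, stood at 40.7 CPM in control and 42.0 CPM in Dnmt1iECKO members, with a log2 ratio of 0.05 (-0.17 to 0.26). In endothelial cells the same transcript was at 48.8 and 26.5 CPM. Of the 6 genes of DNA methylation with enough UMIs, 3 were higher and 3 lower in Dnmt1iECKO members, with none past 2-fold.

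**Figure D3:**
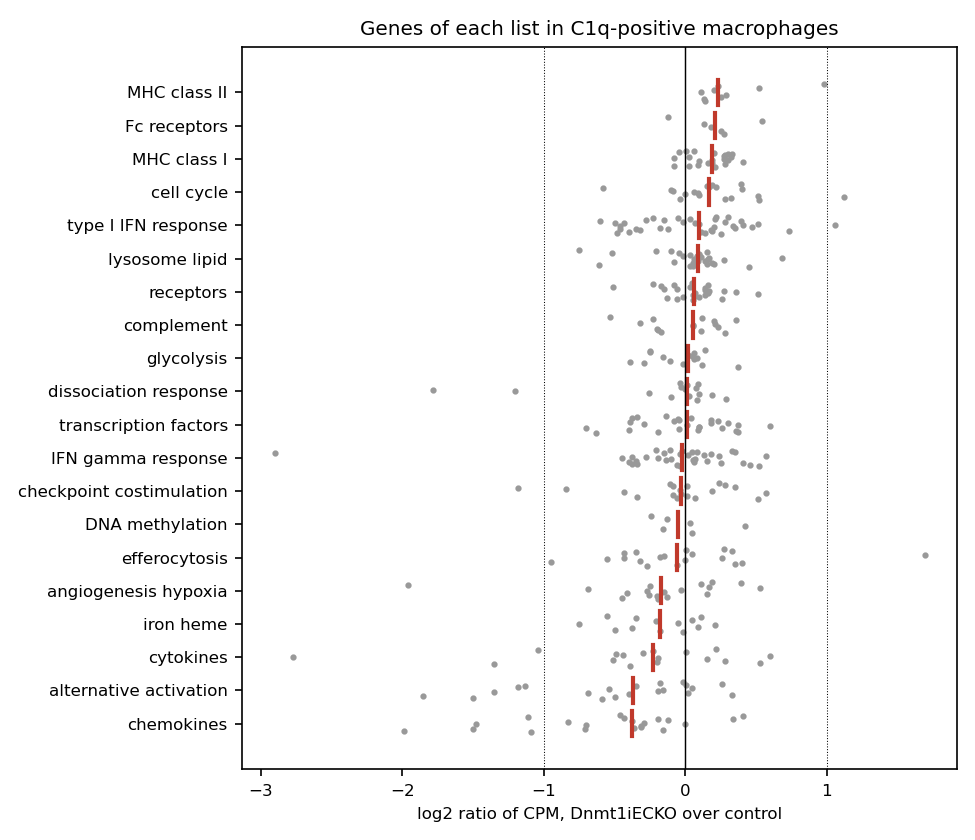
Log2 ratio of CPM, Dnmt1iECKO over control members (x axis), of each gene with at least 100 UMIs (grey points) in 20 gene lists (rows), with the median of each list as a red bar and dotted lines at 2-fold. The chemokine and alternative-activation lists had the lowest medians, -0.38 and -0.37, and the MHC class II list the highest, 0.23.

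Chemokine transcripts were lower in Dnmt1iECKO members. Of 21 chemokine genes 19 were lower and 2 higher, with a median log2 ratio of -0.38, and for 17 of the lower genes the counting interval lay below 0. Past 2-fold were 5 of them, all lower, which is 23.8% of the list against 3.89% of all genes. The list summed to 13664 CPM in control and 10209 CPM in Dnmt1iECKO members. It was also lower in other Csf1r-positive leukocytes, at 8319.5 and 6794 CPM, so this direction was not particular to the members. Ccl8, a ligand of several CC receptors that draws monocytes and T cells, had a level in control members of 1363 CPM (1335 to 1392), and Dnmt1iECKO members had 490.2 CPM (479 to 502), a log2 ratio of -1.48 (-1.52 to -1.43). Ccl12, one of the markers of the class and a ligand of CCR2, was at 409.6 and 192 CPM, a log2 ratio of -1.09 that was -0.29 without members with a Cdh5 or Pecam1 UMI. Both genes lie on chromosome 11 (GRCm38, plus strand), Ccl8 at 82115185 to 82116799 and Ccl12 at 82101845 to 82103400.

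Ligands of CCR4 and CCR3 were also lower. Ccl17 was at 59.4 CPM in control members and lower in Dnmt1iECKO members by a log2 ratio of -1.99 (-3.17 without members with a Cdh5 or Pecam1 UMI), and Ccl24 at 155 and 54.7 CPM (log2 ratio -1.50). These are transcripts of few cells: the 5 highest cells held 76.9% of the control UMIs of each gene. Of the ligands that draw neutrophils, Cxcl3 was at 10.7 CPM in Dnmt1iECKO members (log2 ratio -1.11, and -0.89 without members with a Cdh5 or Pecam1 UMI), Cxcl1 at 967 and 544 CPM (-0.83) and Cxcl2 at 4382 and 3256 CPM (-0.43). The exceptions were Cxcl9, the CXCR3 ligand induced by interferon-γ, at 1012 and 1347 CPM (log2 ratio 0.41, 0.37 to 0.45), and Cxcl16, the ligand of CXCR6, at 475 and 603 CPM (log2 ratio 0.34). Another CXCR3 ligand, Cxcl10, was lower, at 590.2 and 454 CPM (log2 ratio -0.38).

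**Figure D4:**
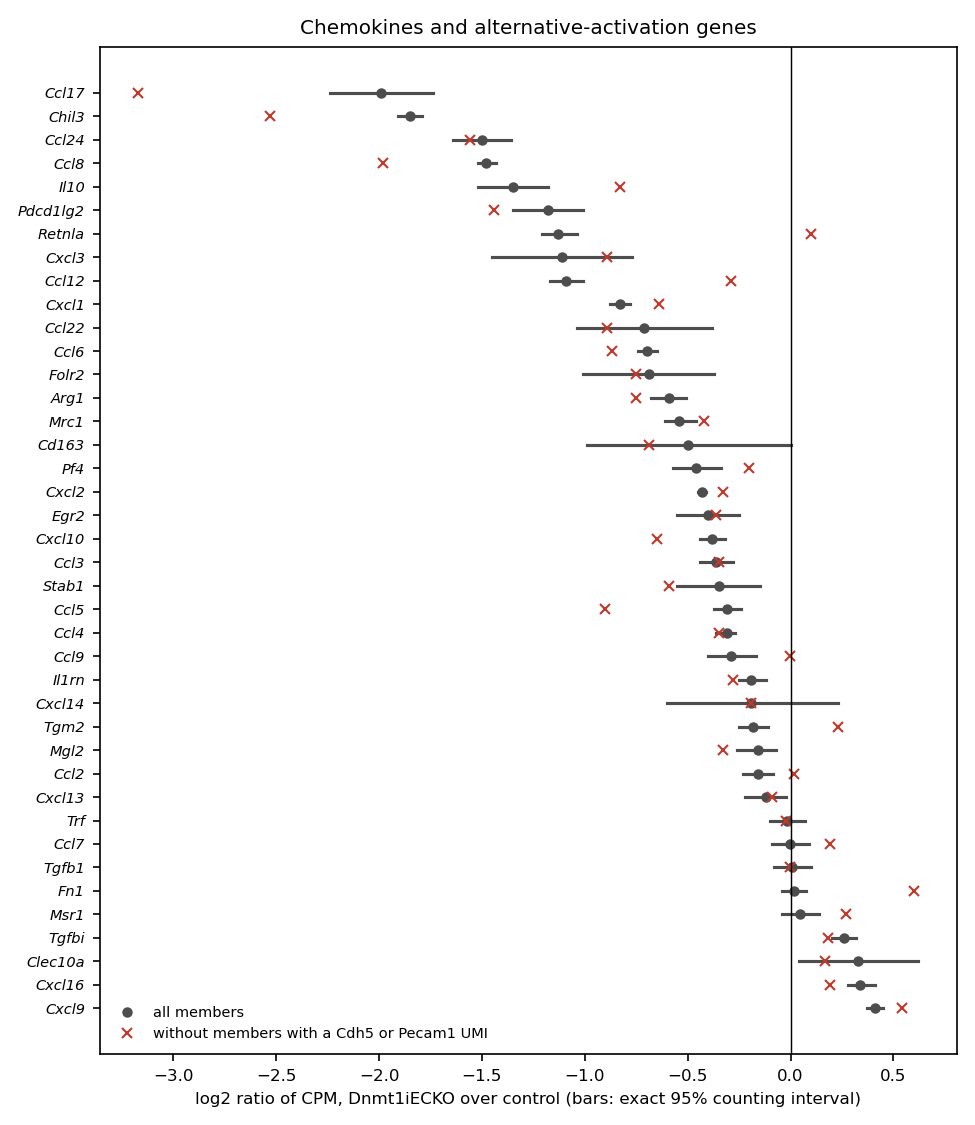
Log2 ratio of CPM, Dnmt1iECKO over control members (x axis), for the chemokine and alternative-activation genes (rows), over all members (grey points, bars are exact 95% counting intervals) and without members that had a Cdh5 or Pecam1 UMI (red crosses). Most points lie below 0 under both choices, while Retnla moved from -1.13 to 0.10 and Ccl12 from -1.09 to -0.29.

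The median chemokine ratio was below 0 within each of clusters 1 to 4 as well. Over list genes with at least 20 UMIs in a cluster, the median log2 ratio was -0.64 in cluster 1, -0.49 in cluster 2, -0.43 in cluster 3 and -0.53 in cluster 4. Lower in these clusters were 14 of 19, 11 of 19, 11 of 19 and 17 of 21 genes. In clusters 2 and 3 the split was thus near even, with 8 genes higher in each. The share of all genes lower within a cluster is not given here, so these counts have no background beside them. Ccl8 was lower in each of the 4: 239 and 38.5 CPM in cluster 1, 5806 and 1907 CPM in cluster 2, 3629 and 758 CPM in cluster 3, and 553 and 141 CPM in cluster 4. Ccl12 was lower in clusters 1, 2 and 4 and higher in cluster 3, at 299 and 459 CPM. Ccl8 and Ccl12 were among the genes the clusters were made from, so these values describe the clusters and do not stand apart from the whole. In other Csf1r-positive leukocytes Ccl8 was low, 5.56 and 3.94 CPM.

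Genes of alternative activation, the program that macrophages take on with interleukin-4 or interleukin-10, were mostly lower in Dnmt1iECKO members. Of 20 genes 15 were lower and 5 higher, the median log2 ratio was -0.37, and 5 were past 2-fold, all lower, where 3.89% of all genes were lower past 2-fold. The list summed to 5543 CPM in control and 4198 CPM in Dnmt1iECKO members. In other Csf1r-positive leukocytes it was lower too, at 9377 and 6159 CPM. Chil3, a chitinase-like lectin on chromosome 3 (106147554 to 106167564, minus strand), was at 899.9 CPM in control and 249.7 CPM in Dnmt1iECKO members, a log2 ratio of -1.85 that was -2.53 without members with a Cdh5 or Pecam1 UMI. Most of its UMIs came from cluster 1, where it stood at 2613 and 699 CPM, and it was lower in other Csf1r-positive leukocytes too, at 5864 and 2904 CPM. Retnla, a secreted protein induced by interleukin-4, was at 355 and 163 CPM (log2 ratio -1.13), with 91.5% of the control UMIs in 5 cells. Its ratio was 0.10 without members that had a Cdh5 or Pecam1 UMI.

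The interleukin-10 gene and the PD-1 ligand gene Pdcd1lg2 were lower in most clusters. Il10 had 101 CPM (93.7 to 109) in control members, whereas Dnmt1iECKO members had 39.7 CPM (36.5 to 43.2), a log2 ratio of -1.35, and it was lower in each of clusters 1 to 4. Without members that had a Cdh5 or Pecam1 UMI its ratio was -0.83, short of 2-fold. Pdcd1lg2 was at 96.3 and 42.5 CPM (log2 ratio -1.18) and was lower in clusters 1, 2 and 4. In cluster 3 it was at 4.09 and 12.1 CPM, on fewer than the 20 UMIs asked of list genes within a cluster. Smaller differences in the same direction were those of Arg1, which encodes arginase, at 313 and 207 CPM (log2 ratio -0.59), and the mannose receptor gene Mrc1, at 421 and 291 CPM (-0.54). Tgfbi, at 564 and 675 CPM (log2 ratio 0.26), and Clec10a, a lectin of the same program, at 21.6 and 27.1 CPM (0.33), were higher.

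Of 17 cytokine genes, 11 were lower and 6 higher, with a median of -0.23. Il23a, the p19 chain of interleukin-23, had 115 CPM (107 to 124) in control members, whereas Dnmt1iECKO members had 16.8 CPM (14.7 to 19.1), a log2 ratio of -2.77. Cluster 1 held 706 of its 728 UMIs in control and 172 of 229 in Dnmt1iECKO members, at 351 and 41.4 CPM, and it was lower in other Csf1r-positive leukocytes, at 115 and 13.1 CPM. Il1a was at 636 and 447 CPM (log2 ratio -0.51), Il6 at 212 and 156 CPM (-0.44) and Tnf at 416 and 355 CPM (-0.23). Higher were Il12b, a chain shared by interleukin-12 and interleukin-23, at 30.9 and 44.7 CPM (log2 ratio 0.53), and Il27 at 8.05 and 12.2 CPM (0.60). Il1b was at 4127 and 4585 CPM, a log2 ratio of 0.15. Tnfsf10, which encodes TRAIL, was at 25.1 and 12.2 CPM, and its log2 ratio of -1.04 was -0.10 without cluster 6 and 0.27 without members with a Cdh5 or Pecam1 UMI; it stood at 478 CPM in control endothelial cells.

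Antigen presentation genes were slightly higher in Dnmt1iECKO members. All 9 MHC class II genes were higher, with a median log2 ratio of 0.23, a sum of 33535 CPM in control and 38647 CPM in Dnmt1iECKO members, and none past 2-fold. The class II chains H2-Ab1 (5519 and 6744 CPM) and H2-Aa (6633 and 7901 CPM) had log2 ratios of 0.29 and 0.25. Without members that had a Cdh5 or Pecam1 UMI the median was 0.0061, with 5 of 8 genes higher. Of the 23 class I genes 20 were higher, with a median of 0.19 and a median above 0 in each of clusters 1 to 4 (0.09, 0.19, 0.14 and 0.23). Among these, B2m stood at 4848 and 5592 CPM, H2-Q4 at 86.2 and 115 CPM, and the immunoproteasome gene Psmb8 at 459.8 and 554 CPM. H2-Q and H2-T genes are near-identical copies, so reads may be split between them and their single values are uncertain. Both lists were also higher in other Csf1r-positive leukocytes of the Dnmt1iECKO library. There class II summed to 14356.5 CPM in control and 16394 CPM in Dnmt1iECKO, and class I to 11201 and 12700 CPM.

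Interferon response genes differed in both directions, and the counts depended on which cells were kept. Of 35 genes of the interferon-γ response 17 were higher and 18 lower, and the median was -0.02. Without members that had a Cdh5 or Pecam1 UMI 23 of 34 were higher, with a median of 0.25. Nos2, the inducible nitric oxide synthase, was the exception past 2-fold, at 60.3 CPM in control and 8.07 CPM in Dnmt1iECKO members, with 85.6% of the control UMIs in 5 cells; its log2 ratio of -2.90 was -4.10 without members with a Cdh5 or Pecam1 UMI. Il18bp, which encodes a secreted inhibitor of interleukin-18, was at 76.9 and 114 CPM (log2 ratio 0.57). Of 37 genes of the type I response 21 were higher and 16 lower, with a median of 0.09 and Ms4a4c past 2-fold, at 64.9 and 135 CPM. The antiviral genes Isg15 (451 and 328 CPM) and Rsad2 (158 and 105 CPM) were lower, whereas Irf7, which encodes a transcription factor of the pathway, was higher (76.7 and 106 CPM), with a log2 ratio of 0.47 that was 1.08 without members with a Cdh5 or Pecam1 UMI.

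The type I list differed in direction between clusters. Its median log2 ratio was -0.25 in cluster 1 and -0.20 in cluster 2 but 0.32 in cluster 3 and 0.52 in cluster 4, where 33 of 37 genes were higher. In cluster 4, Ms4a4c was at 75.6 CPM in control and 246 CPM in Dnmt1iECKO members. Without members that had a Cdh5 or Pecam1 UMI 28 of 36 type I genes were higher, with a median of 0.46. These differences between clusters were not tested. No share or median of all genes within a cluster is given beside them. A difference of this list thus cannot be told apart from one of all genes in the cluster.

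Genes for the uptake and breakdown of cells and lipid showed small differences. Of 28 lysosomal and lipid genes 20 were higher, with a median log2 ratio of 0.09 and none past 2-fold. Gpnmb was at 458 CPM in control and 731 CPM in Dnmt1iECKO members (log2 ratio 0.68), and was higher in each of clusters 1 to 4. Spp1, which encodes osteopontin, was at 516 and 307 CPM (log2 ratio -0.75), and Apoe at 4665 and 4784 CPM (0.04). Of 19 efferocytosis genes 8 were higher and 11 lower, with a median of -0.06. Among them Mfge8, a bridge between dying cells and phagocytes, was at 29.8 and 96.1 CPM (log2 ratio 1.69), and its ratio was 0.85 without members that had a Cdh5 or Pecam1 UMI. Its UMIs were concentrated, with 73.9% of those of the Dnmt1iECKO members in 5 cells. The receptor genes Mertk (111 and 99.9 CPM), Axl (172 and 165 CPM) and Trem2 (227 and 228 CPM) had log2 ratios of -0.15, -0.06 and 0.01. Cd36, an uptake receptor that endothelial cells also express, at 1976 CPM in control, was at 277 and 143 CPM (log2 ratio -0.95).

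Complement and Fc receptor genes differed little. C1qa was at 2801 CPM in control and 3404 CPM in Dnmt1iECKO members, C1qb at 2511 and 2234 CPM, and C1qc at 1913 and 2060.2 CPM. The members were chosen by these 3 transcripts, so their levels are a description. Of the 15 complement genes, these included, 9 were higher and 6 lower, with none past 2-fold. Among the 6 Fc receptor genes 5 were higher, with a median of 0.21; Fcgr4, an activating receptor for IgG, was at 211 and 308 CPM (log2 ratio 0.54) and Fcgr1 at 149 and 176 CPM (0.25). The Fcgr4 ratio was 1.20 without members with a Cdh5 or Pecam1 UMI.

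Receptors, checkpoints and transcription factors stood close to the median of all genes. The 26 receptor genes had a median log2 ratio of 0.06 with none past 2-fold, Cxcr4 being the highest at 97.9 and 139 CPM (log2 ratio 0.51) and Tgfbr2 the lowest at 160.2 and 113 CPM (-0.51). Of 19 checkpoint and costimulation genes 9 were higher and 10 lower. Cd274, which encodes PD-L1, stood at 376 CPM in Dnmt1iECKO members (log2 ratio -0.06), and Havcr2, which encodes TIM-3, at 107 and 159.7 CPM (0.57). The 27 transcription factor genes had a median of 0.01. Among these, Klf2 was at 147 and 222 CPM (0.60) and Irf4 at 17.0 and 10.5 CPM (-0.70), and their ratios were 1.37 and -1.33 without members with a Cdh5 or Pecam1 UMI.

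Cell state lists had medians between -0.18 and 0.17 over all members, and some turned between clusters. Here too, no share or median of all genes within a cluster is given beside the cluster values. The 15 glycolysis genes had a median of 0.02, with 13 lower in cluster 1 (median -0.14), 15 lower in cluster 2 (-0.34) and 13 higher in cluster 3 (0.29). The 13 iron and heme genes had a median of -0.18, with Hmox1, which encodes heme oxygenase 1, at 117 and 69.5 CPM (log2 ratio -0.75), and the 18 angiogenesis and hypoxia genes one of -0.17, with 12 lower. Vegfa was at 183 and 240.1 CPM (0.39). Tek, past 2-fold lower at 21.9 and 5.65 CPM, encodes a receptor best known from endothelium, and its log2 ratio of -1.96 was -0.78 without members with a Cdh5 or Pecam1 UMI. Of 19 cell cycle genes 14 were higher, with a median of 0.17, but the median was -0.63 in cluster 1 and -1.30 in cluster 2 against 0.30 in cluster 3 and 0.52 in cluster 4. Cenpf, a centromere protein gene of dividing cells, was past 2-fold higher, at 10.9 and 23.6 CPM (log2 ratio 1.12), which was 0.44 at a C1q limit of 5 UMIs. Mki67, a gene of dividing cells, was at 153 and 159 CPM. Of 15 genes of the response to dissociation, the median was 0.015, and the heat shock genes Hspa1a (103 and 44.8 CPM) and Hspa1b (74.0 and 21.5 CPM), near-identical copies, were lower past 2-fold.

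Markers of other macrophage and monocyte classes differed within their lists. The 12 alveolar macrophage markers summed to 1401 CPM in control and 627 CPM in Dnmt1iECKO members, and 8 had enough UMIs, of which 3 were higher and 5 lower. Chil3, Ear2 (177 and 64.4 CPM, uncertain because it has near-identical copies) and Car4 (45.0 and 11.4 CPM) were lower past 2-fold, whereas the scavenger receptor gene Marco, a leading gene of cluster 5, was higher, at 30.9 and 98.3 CPM. Car4 is also an endothelial transcript here, at 771 CPM in control endothelial cells, and its log2 ratio of -1.98 was -2.85 without members with a Cdh5 or Pecam1 UMI. Of 10 perivascular and interstitial markers 9 were lower, with a median of -0.54, among them Mrc1, Folr2 (23.2 and 14.4 CPM) and Lyve1 (38.5 and 20.4 CPM), which endothelial cells also express, at 485 CPM in control. Without members that had a Cdh5 or Pecam1 UMI, 7 of the 10 were higher, and of these 3 Lyve1 was, with a log2 ratio of 0.47. The 8 classical monocyte markers summed to 1445 CPM in control and 863 CPM in Dnmt1iECKO members, with 5 higher and 3 lower. Among the lower ones were Chil3, which is also on the alveolar list, and F10 (242 and 153 CPM). Plac8 was at 93.4 and 192 CPM (log2 ratio 1.04), Ly6c2 at 31.9 and 53.9 CPM (0.76) and Ccr2, the receptor by which monocytes leave the marrow, at 149 and 179 CPM (0.26). Of 8 markers of nonclassical monocytes 7 were higher, with a median of 0.29, among them Spn at 12.8 and 28.1 CPM. The exception, Ace, at 37.1 and 14.6 CPM, stood at 663 CPM in control endothelial cells, and its log2 ratio went from -1.35 to 1.34 without members with a Cdh5 or Pecam1 UMI, while those of Plac8 and Ly6c2 became 2.00 and 1.27.

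Some of the highest ratios were not particular to macrophages. Among genes in at least 10% of the members of a library, the 10 with the highest ratio were Gdpd3, Elavl4, Pla2g2d, Lyz1, Igkc, Mfge8, Tm4sf19, Gm16096, Fbxo32 and Klra17. Gdpd3, a phosphodiesterase gene on chromosome 7 (126766334 to 126775649, plus strand), was at 9.94 CPM in control and 147 CPM in Dnmt1iECKO members, a log2 ratio of 3.89. It was 4.48 in endothelial cells and 4.47 in other Csf1r-positive leukocytes. Igkc, the κ constant region gene of plasma cells, was at 25.9 and 90.1 CPM in members and at 31.8 and 72.8 CPM in endothelial cells; it overlaps Gm30211 on the same strand, so its counts are uncertain. Pla2g2d, a secreted phospholipase gene, was at 7.73 and 42.5 CPM, higher in each of clusters 1 to 4, and at 0 and 0.0384 CPM in endothelial cells. Fbxo32, which encodes a ubiquitin ligase component, was at 30.5 and 80.7 CPM in members and at 11.4 and 16.2 CPM in endothelial cells. Lyz1 is a near copy of Lyz2, so its 7.10 and 30.7 CPM are uncertain. The log2 ratio of Klra17, 1.40, was 0.79 without members with a Cdh5 or Pecam1 UMI. That of Igha, a gene chosen after its values were seen, was 1.33, and 0.98 without the same cells.

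The 10 genes with the lowest ratio were Sftpa1, Sftpc, Emcn, Itga2, Nos2, Atp8b1, Samd12, Antxr1, Il23a and Pard3. Of these, Emcn, Itga2, Atp8b1, Samd12, Antxr1 and Pard3 had between 164 and 549.6 CPM in control endothelial cells against 12.6 to 30.3 CPM in control members. Without members with a Cdh5 or Pecam1 UMI the ratio was -1.36 for Atp8b1 and Pard3, -1.90 for Antxr1 and -0.04 for Samd12, and Itga2 had too few UMIs. The surfactant genes Sftpa1 (47.0 and 2.49 CPM) and Sftpc (267 and 19.2 CPM) had log2 ratios of -4.24 and -3.80, which were -0.86 and -0.99 once the highest cell of each library was left out and -0.51 and -0.52 without members with a Cdh5 or Pecam1 UMI. Nos2 and Il23a stood at 12.1 and 0.435 CPM in control endothelial cells, below their levels in control members, and their log2 ratios were -2.72 and -2.87 without the highest cell.

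Across the 8970 genes with enough UMIs in members, endothelial cells and other Csf1r-positive leukocytes, 373 were past 2-fold in the members and 9 of those were past 2-fold the same way in all 3 classes. The 7 higher ones were Gdpd3, Igkc, Igha, Saa3, Tnfrsf14, Wdfy1 and Gm47283, and the 2 lower ones were Cyp4b1 and Rpl29. Rpl29, a ribosomal protein gene chosen after its values were seen, was at 769 and 157 CPM in members (log2 ratio -2.29) and had ratios of -2.20 in endothelial cells and -2.23 in the other leukocytes. Saa3 was at 277 and 646 CPM in members, where cluster 5 held most of it, at 6982 and 13152 CPM; its log2 ratio of 1.22 was 2.85 without members with a Cdh5 or Pecam1 UMI.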

How the data were processed

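The deposited values were raw UMI counts per gene and cell, which the authors made with Cell Ranger 9.0.1 on mm10 (10x 3' libraries, cells called by that software, no normalization). Positions are from GENCODE M21 (GRCm38), which held 32235 of the 32285 gene identifiers.

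From these counts, members were taken by the rule given above, and the UMIs of each gene were summed over the members of a library. Levels are CPM, and their intervals are exact Poisson intervals. A ratio has the exact interval conditional on the sum of both counts, and a share the Clopper-Pearson interval. Members held 6335121 UMIs in control and 13635969 in Dnmt1iECKO. Genes with at least 100 UMIs over both libraries were compared, and "past 2-fold" is a description of size. With 1 library per genotype, no test was made. Doublets were the highest Scrublet scores (0.4% per 1000 cells) in scanpy 1.11.5 and were kept in the main analysis. Clusters used 2000 variable genes, 20 components, 15 neighbours and Leiden resolution 0.5. Other cell classes were other Csf1r-positive leukocytes and endothelial cells.

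Genes named are list and marker genes with at least 100 UMIs, the 10 highest and 10 lowest ratios (in at least 10% of members of a library, same sign as the mean over cells), the 15 genes highest over endothelial cells after adding 10 CPM to both, and leading cluster genes in at least 25% of its cells. Members and lists were chosen with earlier results of these data known. Of list and marker genes, 5 symbols were not matched, and some measured genes are not reported here. The ratio computation was checked on simulated counts. numpy 2.4.6, scipy 1.17.1 and pandas 2.3.3 were used. Alternatives changed the filters, the C1q limit, doublets, members with a Cdh5 or Pecam1 UMI, scaling, cluster weights and gene minimum.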

Additional observations from a re-analysis of the deposited data

Results flagged for a closer look

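Ccl8 moved in opposite directions in macrophages and in endothelial cells. Its log2 ratio of Dnmt1iECKO over control was -1.48 in the macrophages, from 1363 and 490.2 CPM, and 1.35 in endothelial cells, from 1.62 and 4.14 CPM on 93 and 108 UMIs. Each class has 1 library per genotype, and the difference between the classes was not tested. In the same endothelial cells the macrophage markers C1qa, C1qb, C1qc, Aif1 and Ccl12 summed to 4.15 CPM in control and 15.8 CPM in Dnmt1iECKO. The share of Ptprc-positive cells was 18.3% in the control and 58.4% in the Dnmt1iECKO library. Whether macrophage transcripts in endothelial droplets had a part in the low endothelial Ccl8 level was not tested.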

How the results depend on the processing

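The share of macrophages among all cells had a log2 ratio of 1.31, and -0.37 with Ptprc-positive cells as the denominator. The 49 higher and 372 lower genes became 100 and 99 without members with a Cdh5 or Pecam1 UMI, 281 and 967 at a minimum of 20 UMIs, 24 and 216 at 200 UMIs, and, chosen after seeing the data, 28 and 37 without genes higher in endothelial cells. Also chosen after seeing the data, the higher genes were 82 with the highest cell of each gene left out and the lower genes 93 without cluster 6. With clusters weighted as in control the lower genes were 167. The MHC class II median of 0.23 was 0.27 at 10 C1q UMIs per 10000, 0.21 without doublets, 0.0061 without members with a Cdh5 or Pecam1 UMI, 0.18 without cluster 6, 0.21 with size factors, 0.20 as the mean over cells and 0.18 with weighted clusters. Without members with a Cdh5 or Pecam1 UMI the medians were 0.25 for the interferon-γ list, 0.46 for the type I list, and Retnla turned to 0.10. The chemokine median was -0.49 as the mean over cells. Depth limits genes under 100 UMIs over all members, for which no ratio is given. Ratios within clusters, or without members with a Cdh5 or Pecam1 UMI, can rest on fewer UMIs. Among the latter are those of Antxr1, Atp8b1, Pard3, Samd12, Sftpa1, Tek and Tnfsf10. No paired analysis was possible because each genotype has 1 library, and no library could be left out.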
